A study of Mus musculus with 2 samples.

Results

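The 7 genes described here are the mouse cyclin-dependent kinase inhibitor genes, the 3 of the Cip/Kip family (Cdkn1a, Cdkn1b and Cdkn1c) and the 4 of the Ink4 family (Cdkn2a, Cdkn2b, Cdkn2c and Cdkn2d), of 21887 protein-coding genes in all. They were taken as a named list, and each was given every Arid1b peak with any base inside it or in the 10 kb on either side, which came to 17 of the 8318 peaks in the deposited list. Arid1b is one of the large ARID subunits of the BAF chromatin remodelling complex, and its chromatin immunoprecipitation with sequencing (ChIP-seq) was set against input chromatin. The ChIP library was made with an Arid1b antibody and the other library from input chromatin that saw no antibody. Both came from cultured dental mesenchyme cells of C57BL/6 wild-type mice, taken between postnatal days 3.5 and 7.5 from the apical end of the first lower molars and grown with 10% serum. The series title concerns Arid1a and cell cycle arrest of tooth root progenitors, but neither library is of Arid1a or of cells lacking it. With 1 library of each kind no test between conditions could be made, so the values describe these 2 libraries, and an absent peak means only that none was listed at this depth. The list holds binding signal and no expression, so the labelled cell type was not checked against its markers.

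Cyclin-dependent kinases, switched on by cyclins, drive cells from G1 into DNA replication, and the inhibitors hold them back when cells stop dividing and differentiate. Cip/Kip proteins bind cyclin and kinase together and act on several kinases, whereas Ink4 proteins, built of ankyrin repeats, bind the monomeric kinases Cdk4 and Cdk6. Cdkn2a also gives the unrelated protein Arf, which shields p53 by binding Mdm2, from a distal first exon of its own.

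Arid1b peaks were listed at 5 of the 7 genes, against 31.7% of all protein-coding genes by the same rule. In the Cip/Kip family Cdkn1a had 1 peak, Cdkn1b had 6 and Cdkn1c had 0. In the Ink4 family Cdkn2a had 5, Cdkn2b had 1, Cdkn2c had 4 and Cdkn2d had 0. Both families thus held 1 gene without a peak. Of the 7 Cip/Kip peaks 6 were at Cdkn1b, and of the 10 Ink4 peaks 5 were at Cdkn2a and 4 at Cdkn2c. The 2 genes without a peak lay far from any: the nearest was 87330 bp from Cdkn1c, inside Nap1l4, and 49198 bp from Cdkn2d, inside Keap1. Counting any base, the window of 10 kb left no peak just outside it. The outermost peak counted had its nearer edge 9960 bp from its gene (Cdkn2c), and the nearest one not counted lay 16084 bp away (from Cdkn2a, the peak of Cdkn2b). The summit of that outermost peak lay 10045 bp from Cdkn2c, beyond the window, so by summits 16 peaks were counted.

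**Figure D1:**
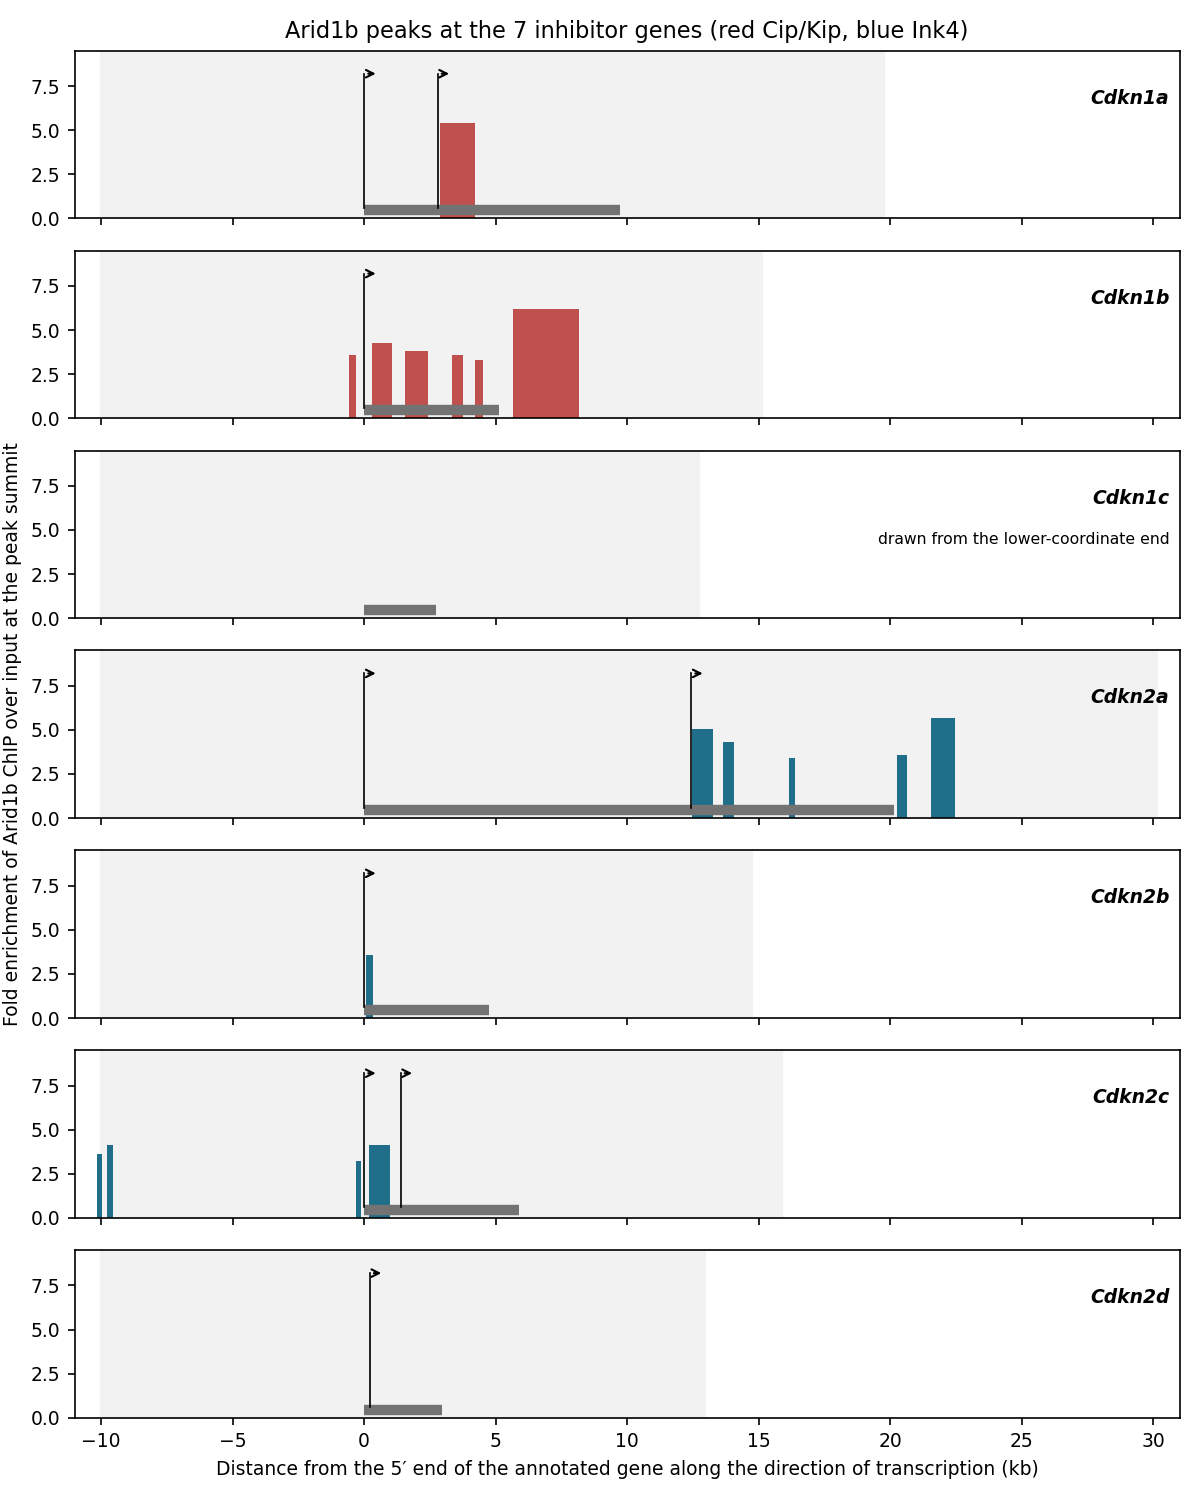
Arid1b peaks at the 7 genes, drawn from the 5′ end of the annotated gene in the direction of transcription (x axis, kb). Cdkn1c, without a start or strand in the promoter windows, is drawn from its lower-coordinate end instead. Bar height is the authors' fold over input at the summit and bar width the peak's width. Grey lines are gene bodies, arrows RefSeq start sites and shading the gene with 10 kb on either side. Cdkn1b carries 6 peaks, 1 before the gene, 4 in it and the tallest beyond its end, Cdkn2a carries 5 from its inner start onwards, and Cdkn1c and Cdkn2d carry 0.

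The start sites were read from RefSeq promoter windows (GRCm38.p6), which matched 6 of the 7 genes, all but Cdkn1c, and gave 9 starts. A peak lay within 1 kb of 6 of these starts, against 23.3% of 21263 start sites of protein-coding genes. These belonged to 5 of the 6 matched genes, against 23.9% of protein-coding genes with a start in the table. Cdkn1a and Cdkn2a each have 2 starts, of which the inner one had a peak at its side and the outer one did not. The 250 bases before each of these 4 starts are shown for that contrast, with every GC box (GGGCGG on either strand, a promoter element bound by Sp factors) in capitals.
Cdkn1a outer start, without a peak within 1 kb, chr17:29090729-29090978, plus strand: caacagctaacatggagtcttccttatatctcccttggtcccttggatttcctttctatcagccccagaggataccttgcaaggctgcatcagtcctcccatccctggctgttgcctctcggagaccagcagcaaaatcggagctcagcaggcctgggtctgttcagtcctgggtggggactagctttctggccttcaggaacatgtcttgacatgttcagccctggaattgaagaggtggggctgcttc
Cdkn1a inner start, with a peak, chr17:29093519-29093768, plus strand: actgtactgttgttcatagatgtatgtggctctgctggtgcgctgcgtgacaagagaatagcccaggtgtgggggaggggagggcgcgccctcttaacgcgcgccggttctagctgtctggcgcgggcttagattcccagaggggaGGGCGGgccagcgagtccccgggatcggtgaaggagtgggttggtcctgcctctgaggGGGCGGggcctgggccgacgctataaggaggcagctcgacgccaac
Cdkn2a outer start, without a peak within 1 kb, chr4:89294620-89294869, minus strand: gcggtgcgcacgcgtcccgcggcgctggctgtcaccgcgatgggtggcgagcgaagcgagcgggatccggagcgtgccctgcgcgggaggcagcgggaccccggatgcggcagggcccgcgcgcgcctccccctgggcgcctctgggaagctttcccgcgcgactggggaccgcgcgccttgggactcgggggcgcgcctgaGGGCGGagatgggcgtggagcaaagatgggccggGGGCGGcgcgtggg
Cdkn2a inner start, with a peak, chr4:89282193-89282442, minus strand: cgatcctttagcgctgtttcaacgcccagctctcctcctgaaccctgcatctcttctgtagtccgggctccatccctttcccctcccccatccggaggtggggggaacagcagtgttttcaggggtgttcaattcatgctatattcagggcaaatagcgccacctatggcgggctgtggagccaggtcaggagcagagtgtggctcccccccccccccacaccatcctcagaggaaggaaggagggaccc
The pairs went opposite ways in base composition. At Cdkn1a the window before the inner start had 19 CpG dinucleotides and 2 GC boxes, whereas that before the outer start had 2 CpG and 0 GC boxes. At Cdkn2a the window before the inner start had 7 CpG and 0 GC boxes, whereas that before the outer start had 40 CpG and 2 GC boxes. A split of this kind, with a peak within 1 kb of some but not all starts, was found in 15.6% of 2761 genes with several starts. That base includes genes without a peak at any start. Cdkn2c, the remaining inhibitor gene with several starts, had a peak within 1 kb of both.

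The windows before the starts of Cdkn1b and Cdkn2c are shown because peaks stood on both sides of these starts, and that of Cdkn2d because a GC-rich window there went with no peak. Capitals mark GC boxes at Cdkn1b and Cdkn2d, and at Cdkn2c they mark the 133 bases that lay inside a peak, the only one of the 9 windows that a peak touched.
Cdkn1b, chr6:134920151-134920400, plus strand: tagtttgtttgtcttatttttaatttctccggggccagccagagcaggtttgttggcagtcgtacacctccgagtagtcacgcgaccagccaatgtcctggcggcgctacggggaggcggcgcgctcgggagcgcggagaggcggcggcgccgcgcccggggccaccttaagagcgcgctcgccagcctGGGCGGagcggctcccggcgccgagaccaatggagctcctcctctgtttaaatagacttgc
Cdkn2d, chr9:21291210-21291459, minus strand: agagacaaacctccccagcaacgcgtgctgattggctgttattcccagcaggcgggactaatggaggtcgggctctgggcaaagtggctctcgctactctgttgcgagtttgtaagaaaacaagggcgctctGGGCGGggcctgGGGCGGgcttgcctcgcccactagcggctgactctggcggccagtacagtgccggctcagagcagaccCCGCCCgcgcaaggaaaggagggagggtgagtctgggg
Cdkn2c outer start, chr4:109666757-109667006, minus strand: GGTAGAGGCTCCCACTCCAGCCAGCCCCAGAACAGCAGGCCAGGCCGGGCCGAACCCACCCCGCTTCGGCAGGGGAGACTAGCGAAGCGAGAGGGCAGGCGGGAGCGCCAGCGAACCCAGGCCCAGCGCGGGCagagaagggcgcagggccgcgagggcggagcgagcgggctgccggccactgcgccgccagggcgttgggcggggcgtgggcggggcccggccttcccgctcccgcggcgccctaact
GC boxes were in 5 of the 9 windows, at 3 of the 6 starts with a peak (Cdkn1a inner, Cdkn1b and Cdkn2c outer) and at 2 of the 3 without (Cdkn2a outer and Cdkn2d). Over all start sites 42.6% of such windows held one, and a peak lay within 1 kb of 37.1% of starts whose window held a GC box and of 13.0% of the others. The window of Cdkn1b also held 2 CCAAT boxes and that of Cdkn2d 1 (CCAAT, in 35.4% of all windows, either strand). Cdkn2b had a CRE-type match, read on both strands of the same letters (TGACGTC, 3.36% of all windows), and a Gli-type match (ACCACCC, 3.92%). None of the 9 windows held the E-box CACGTG (6.63%), the AP-1 letters TGAGTCA (4.06%), the FOXO letters TGTTTAC (2.62%), the TATA letters TATAAA (11.6%) or the TEAD letters GGAATG (11.7%). These are matches of letters in the reference sequence and say nothing of binding.

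Cdkn1a, a classic target gene of p53, had a single wide peak inside the gene, at chr17:29093880-29095189 (mm10, 1310 bp). The summit pileup was 53 fragments in the ChIP library against an expected 8.98 from input, a fold of 5.41 (95% Poisson interval 4.08 to 7.05). The fold is the authors', which equals the ratio of pileup to expected level with 1 added to each, and the interval covers counting error of the ChIP only. The interval lay above the median fold of all peaks, 3.72, and 93.4% of all peaks had a lower fold. The peak began 111 bp after the inner start, but its summit lay 1322 bp after it, near the far edge of the peak. The outer start, 2790 bp before the inner one, was 2901 bp from the nearest edge of a peak.

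Cdkn1b, whose product restrains cyclin E and cyclin A kinases in quiescent cells, had the most peaks of the 7 genes. A count of 6 or more was reached by 0.708% of protein-coding genes, and by 0.859% of the 5121 protein-coding genes no longer than Cdkn1b, which spans 5125 bp. Peaks stood on both sides of its start and left a gap of 631 bp around it. The upstream one, at chr6:134919832-134920083, ran from −569 to −318 bp of the start with a pileup of 41 in the ChIP against 10.7 expected from input, a fold of 3.60 (2.61 to 4.85). The one after the start, at chr6:134920715-134921476, ran from 314 to 1075 bp with a pileup of 52 against 11.4 expected, a fold of 4.26 (3.20 to 5.57). Their intervals overlap and both include the median of all peaks. Inside the gene 3 further peaks followed with folds of 3.82, 3.61 and 3.30 and summits 1719, 3575 and 4446 bp after the start, so that the 4 peaks in the gene had lower folds towards its end, but their intervals overlap.

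The strongest of the 17 peaks lay beyond the end of Cdkn1b, at chr6:134926045-134928552. It was 2508 bp wide, the widest at these genes, against a median width of 307 bp over all peaks. Its summit, 1374 bp past the gene end, had a pileup of 59 in the ChIP against 8.68 expected, a fold of 6.20 (4.74 to 7.96), and 96.8% of all peaks had a lower fold. Since Cdkn1b is on the plus strand, this end is the 3′ end of the gene and the peak lay 5644 bp or more from its start. The peak stood between Cdkn1b and the lncRNA gene Lockd, which is transcribed in the same direction, and ran from −3047 to −540 bp of the Lockd start. Its interval lay above that of the weakest peak at Cdkn1b, 2.28 to 4.65, and overlapped those of the other 4.

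Cdkn1c, an imprinted gene whose product limits growth, spans chr7:143458339-143461059, and neither it nor the 10 kb on either side held a peak. The neighbouring lncRNA gene Gm33663, 2276 bp away, had none within 10 kb either.

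Cdkn2a, at chr4:89274473-89294619 on the minus strand, had 5 peaks, a count that 1.24% of protein-coding genes reached or passed. All 5 lay after its inner start, the one that in the mouse gives the Ink4a transcript, and none lay within 1 kb of the outer start, that of the Arf transcript, 12427 bp further out. The nearest peak edge to the outer start was 12481 bp away. The inner start was met by a peak at chr4:89281342-89282138 that began 54 bp after it, with a pileup of 50 in the ChIP against 9.15 expected, a fold of 5.03 (3.76 to 6.60). Within the gene 2 more peaks followed, at chr4:89280558-89280973 with a fold of 4.34 (3.14 to 5.85) and at chr4:89278253-89278460 with 3.41 (2.36 to 4.77). The peaks inside the gene thus had lower folds with distance from the inner start, with overlapping intervals. The lncRNA gene Gm12610 starts 561 bp from the outer end of Cdkn2a in the opposite direction, and its only peak within 10 kb was that of Cdkn2b.

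The other 2 peaks of Cdkn2a lay beyond its 3′ end, as the strongest of Cdkn1b did. One was 101 bp from the gene, at chr4:89273974-89274372, with a fold of 3.60 (2.61 to 4.85). The other, 1405 bp from the gene at chr4:89272177-89273068, was the strongest of the Ink4 family, with a pileup of 54 in the ChIP against 8.68 expected and a fold of 5.68 (4.29 to 7.38). Its summit lay 1844 bp past the gene end, and its interval overlapped those of the other 4 peaks. A peak in the 10 kb beyond the gene end was listed at these 2 genes of the 6 with a known strand, against 7.81% of protein-coding genes. In both, the highest fold of the gene was the one beyond its end. At Cdkn1b that peak also reached to −540 bp of the Lockd start, so it lay within 1 kb of a start of a neighbouring gene. A peak in the 10 kb before the gene was listed at Cdkn1b and Cdkn2c, against 8.29% of protein-coding genes.

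Cdkn2b, which transforming growth factor beta induces in many cells, had 1 peak, at chr4:89310703-89310943. It was 241 bp wide, began 89 bp after the start and had its summit at 272 bp, with a pileup of 39 in the ChIP against 10.2 expected and a fold of 3.57 (2.56 to 4.84). The gene lies inside the lncRNA gene Gm12610, so the peak is in both. No peak lay between it and the inner start of Cdkn2a, so the neighbouring Ink4 genes shared none.

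Cdkn2c, another inhibitor of Cdk4 and Cdk6, had peaks on both sides of its outer start, as Cdkn1b did, with a gap of 290 bp around it, and 4 peaks in all, a count that 2.39% of protein-coding genes reached or passed. The upstream peak, at chr4:109666874-109667075, had a pileup of 39 in the ChIP against 11.4 expected, a fold of 3.22 (2.31 to 4.37), the lowest of the 17. The peak after the start, at chr4:109665775-109666583, had a pileup of 41 against 9.15 expected, a fold of 4.14 (3.0 to 5.58). It began 173 bp after the outer start, and its nearer edge lay 403 bp before the inner start, which lies 1384 bp further into the gene. The lncRNA gene 9630013D21Rik, 3288 bp beyond the other end of Cdkn2c, had these 2 peaks within 10 kb and no other.

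The other 2 peaks counted for Cdkn2c stood at the start of its neighbour Faf1, a gene for a ubiquitin-binding protein, and entered only through the 10 kb window. They had folds of 4.13 and 3.61 and again lay on both sides of a start, from −327 to −111 bp and from 89 to 299 bp of that of Faf1. When each peak was counted only for the nearest protein-coding gene, Cdkn2c kept 2 peaks, the Ink4 family 8 and the 7 genes 15.

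Cdkn2d, the fourth Ink4 gene, spans chr9:21288459-21291421, and neither it nor the 10 kb on either side held a peak. Its neighbours Kri1, 490 bp away, and Ap1m2, 3194 bp away, had none either. The window before its start was not poor in GC, with 63.6% G and C and 16 CpG, whereas starts with a peak had medians of 63.6% and 20 CpG and those without had 53.2% and 6 CpG.

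**Figure D2:**
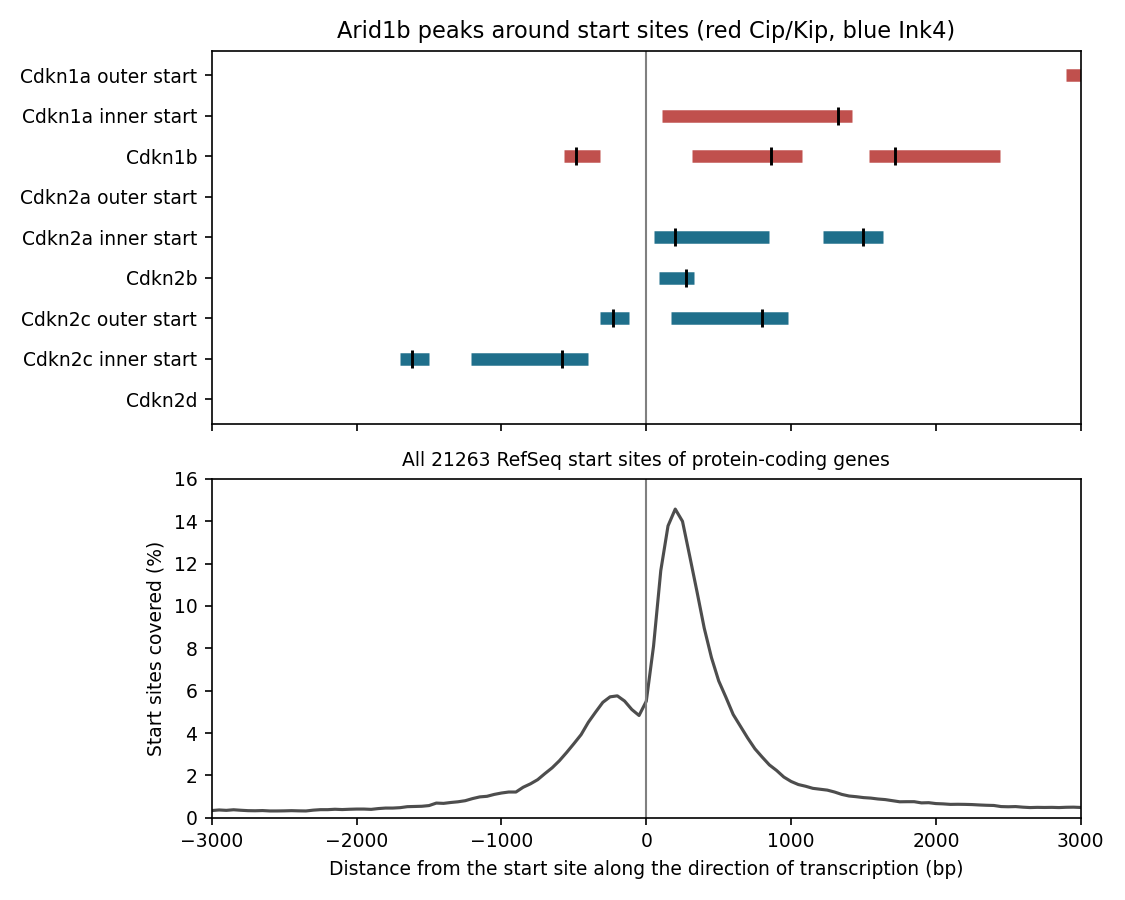
Top, the peaks around each of the 9 starts (bars, first to last base; black ticks, summits; x axis, bp along the direction of transcription); bottom, the percentage of all 21263 start sites covered by a peak at each distance. No bar crosses 0 at the 9 starts, and over all starts coverage was 14.6% at 200 bp, 5.50% at 0 and 5.76% at −200 bp.

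Peaks near the start sites lay beside them. None of the 17 covered one of the 9 starts, and the 7 peaks within 1 kb of a start of their own gene had their nearer edge between 54 and 318 bp from it. Among all start sites with a peak within 1 kb, 23.6% were covered by one, and with only 6 such starts here a count of 0 does not set these genes apart from the list. Over all start sites the coverage had a main maximum of 14.6% at 200 bp after the start, a dip to 4.83% at −50 bp and a lower maximum of 5.76% at −200 bp, so a dip near the start was present across the list as well. Starts flanked by peaks on both sides within 1 kb and not covered, as at Cdkn1b and the outer start of Cdkn2c, made up 2 of the 9 starts, against 2.22% of all starts, and 2 of the 6 with a peak, against 9.53% of all starts with one. Of the 17 peaks, 9 (52.9%) lay within 1 kb of a coding start, 7 at the listed genes and 2 at Faf1, against 57.6% of all peaks.

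The expected input level was raised at the summits of the peaks beside these starts, and it is known only at summits of listed peaks. All 7 peaks within 1 kb of a start of the listed genes had an expected input level above the genome background of 8.68, from 8.98 to 11.4, as against 1 of the other 10 (at Cdkn2a, 10.7). The 2 peaks beside the start of Faf1 were among those at the background. Over the list, 56.2% of peaks within 1 kb of a start and 48.2% of the others had a raised level. The fold already takes this level into account. What part it has in where the peaks were called was not tested.

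**Figure D3:**
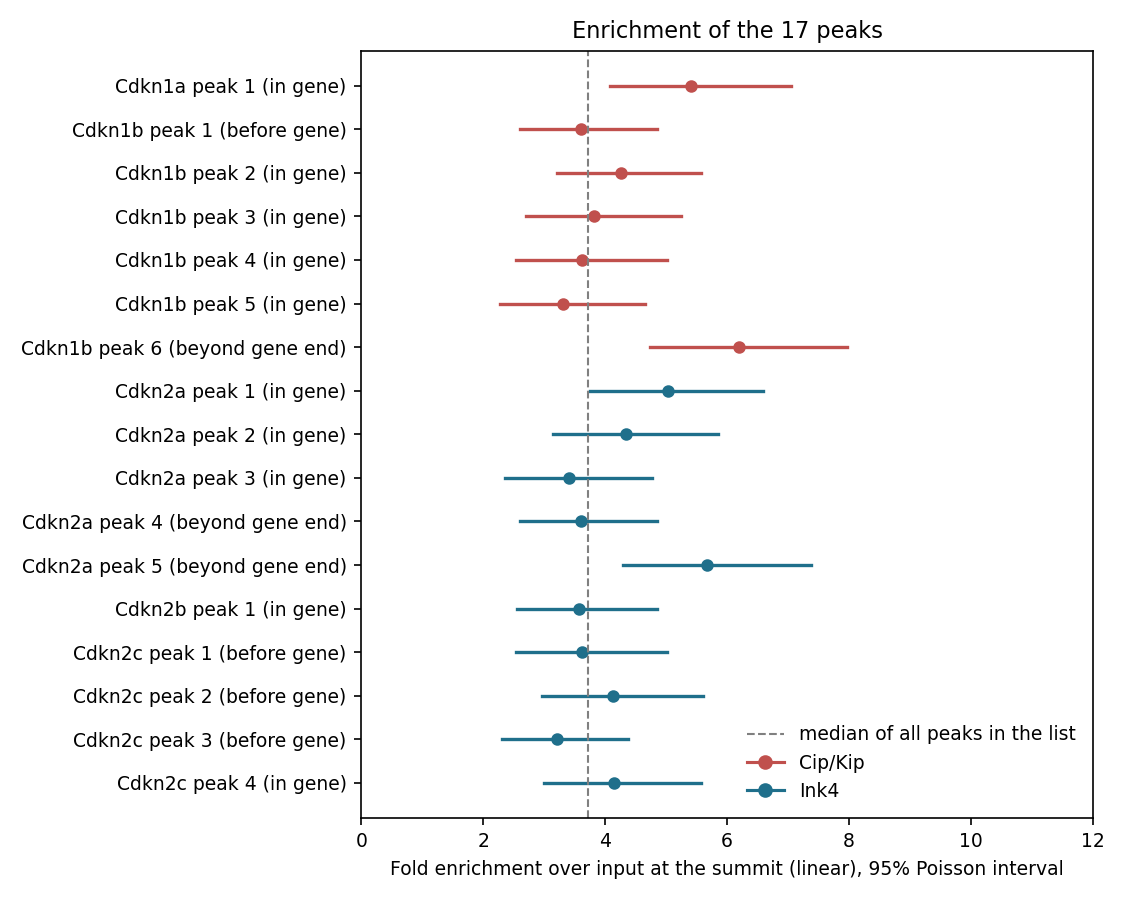
Fold over input at the summit (x axis, linear) for the 17 peaks in order along each gene, with 95% Poisson intervals of the ChIP pileup; the dashed line is the median of all peaks, 3.72. The intervals of 4 peaks lie above the line: Cdkn1a peak 1, Cdkn1b peak 6 and Cdkn2a peaks 1 and 5.

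The families had similar median folds. The 7 Cip/Kip peaks had a median fold of 3.82 (range 3.30 to 6.20), and the 10 Ink4 peaks had a median of 3.87 (range 3.22 to 5.68). The intervals of 5 of the 7 Cip/Kip peaks and 8 of the 10 Ink4 peaks included the median of all peaks, 3.72, and those of 2 in each family lay above it. The same shares over the whole list are not given here, so these counts do not set the members apart from it. Cip/Kip peaks had a median width of 762 bp and Ink4 peaks one of 320 bp. The Ink4 median includes the 2 narrow peaks at Faf1, of 211 and 217 bp. By position, 1 Cip/Kip peak lay before the gene, 5 touched it and 1 lay beyond its end, whereas 3 Ink4 peaks lay before the gene (2 of them at Faf1), 5 touched it and 2 lay beyond its end. As 6 of the 7 Cip/Kip peaks are at 1 gene, these figures describe Cdkn1b more than a family, and peaks of 1 gene are not replicates, so no test was made.

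**Figure D4:**
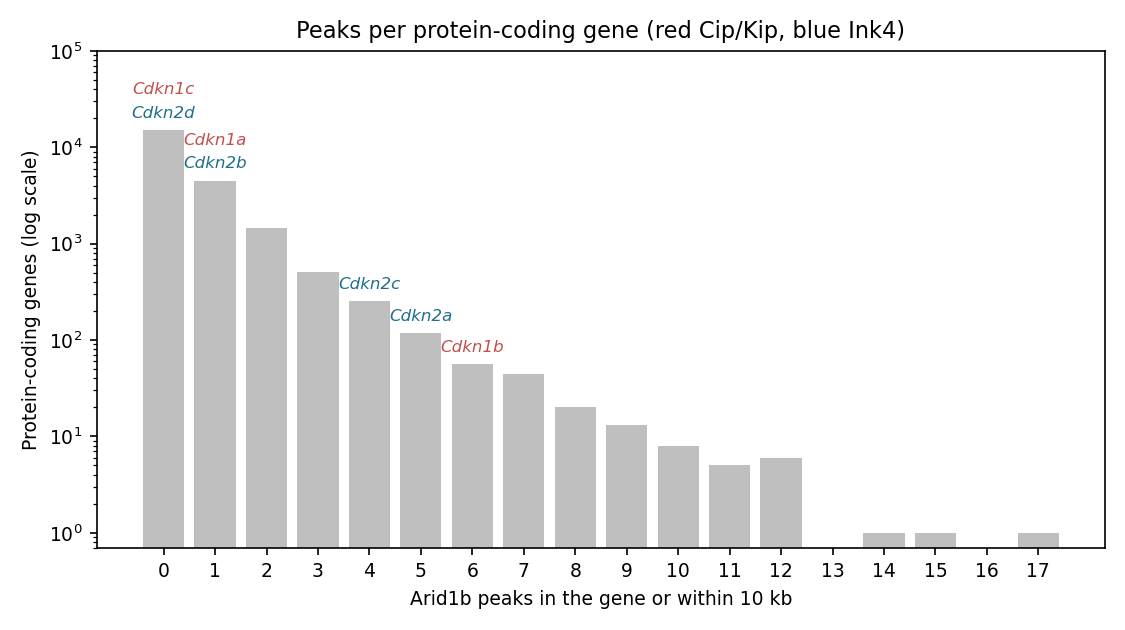
Number of protein-coding genes (y axis, log scale) by their number of Arid1b peaks, counted inside the gene and 10 kb to either side (x axis), with the 7 genes named above their bars. Cdkn1c and Cdkn2d stand with the 14944 genes at 0, Cdkn1a and Cdkn2b with the 4459 at 1, and Cdkn2c, Cdkn2a and Cdkn1b at 4, 5 and 6.

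Peaks were also frequent at genes that act with the inhibitors. Of 49 such genes in 4 lists, 37 (75.5%) had a peak by the same rule, and of the 7 inhibitors 5 (71.4%), against 31.7% of all protein-coding genes. The median was 1 peak per gene in both sets. These lists were drawn up with earlier results of the data known, so their counts are a description.

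Among the cyclins and kinases that the inhibitors bind, 8 of 11 had a peak. Of the 11, 4 had a peak within 1 kb of a start, against 23.9% of protein-coding genes with a known start. These were Cdk6 (fold 4.23, 3.05 to 5.73), Cdk1 (4.04, 2.92 to 5.47), Ccnd3 (3.82, 2.71 to 5.25) and Cdk2 (3.65, 2.58 to 5.01). A stronger peak counted for Cdk2, with a fold of 7.54 (5.92 to 9.47), had its summit 1439 bp outside the gene. That summit was inside the gene Pmel and 231 bp from the start of Rab5b. Ccna1, Ccne1 and Cdk4 had no peak, so that of the 2 Ink4 targets Cdk6 carried one and Cdk4 did not.

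Of 12 genes listed for the ubiquitin ligases that degrade Cip/Kip proteins, 9 had a peak. The list and the count include Pcna, which is not itself a ligase gene. Both Cks1b, the cofactor that helps the ligase recognise the Cdkn1b product, and the adaptor gene Skp1 reached a fold of 5.47 (4.11 to 7.15) at a start, followed by Pcna (4.23) and Rbx1 (3.61). A stronger peak counted for Cks1b, with a fold of 7.54 (5.92 to 9.47), had its summit 3521 bp outside the gene and 70 bp from the start of Flad1. Skp2, the gene of the substrate receptor itself, had none, and neither had Cul4b or Rnf123.

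Of 23 regulators of inhibitor transcription, 18 had a peak. The Sp factor genes Sp1 (8.26, 6.56 to 10.3) and Sp3 (6.09, 4.65 to 7.85) led at starts, ahead of the p53 antagonist gene Mdm4 (5.16) and the transforming growth factor beta effector gene Smad3 (4.95). Cbx7, Foxo4, Id1, Smad4 and Zbtb17 had no peak.

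Of the pocket protein genes, whose products the inhibitors keep in their active form, Rbl1 (7.23, 5.65 to 9.12) and Rbl2 (3.21, 2.25 to 4.45) had a peak at a start and Rb1 had none. Of 3 further genes that carry a Cdkn symbol but belong to neither family, Cdkn2aipnl (4.27) and Cdkn2aip (3.26) had a peak at a start and Cdkn3 had none.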

How the data were processed

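Arid1b ChIP and input chromatin from cultured dental mesenchyme cells were analysed, 1 library each. Per the submitters' processing notes, which state no roles or settings, the build was mm10 and the tools included MACS2 2.1.1, Bowtie2 2.2.5, FastQC 0.11.8 and Picard. Depth of the libraries in reads is unknown here. The deposited peak list gives each peak's position, linear fold (a ratio to input at the summit), −log10 p-value, −log10 q-value, score and summit offset, all the authors' values. The score was not used.

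Summit pileup and expected input were solved for, peak by peak, using the MACS2 formulas for fold and p-value. Whole pileups solved both within 0.001 in −log10 p for 100% of peaks, and the same steps recovered the pileup of 100% of 1000 simulated peaks. The simulated peaks were made with the same formulas, so they check the solving alone. Their expected levels did not reach the highest in the list. Intervals are exact Poisson 95% intervals of the pileup, taking the expected level as known. Median pileup over all peaks was 38.

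Genes came from a RefSeq table of GRCm38.p6, the assembly of mm10, without mitochondrial genes. Strand and start sites came from RefSeq promoter windows, which covered 17492 protein-coding genes. Positions are 1-based. A peak counted when any base of it lay inside a gene or 10 kb to either side, or within 1 kb of a start. Sequences are the 250 bases before a start. No test between groups was made. Python 3.11.15, pandas 2.3.3, NumPy 2.4.6 and SciPy 1.17.1 were used.

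The members, lists and rules were chosen with earlier results of these data known. Named were the 7 genes with every peak, genes overlapping or within 10 kb of them, and, of each list, up to 4 members with the highest fold at a start and every member that had none. Nap1l4, Keap1 and Pmel are named for a peak summit inside them, and Rab5b and Flad1 for the start nearest to a peak. Alternatives were stricter peaks, other windows, summits in place of any overlap, assignment to the nearest gene and peaks with input at the genome background.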

Additional observations from a re-analysis of the deposited data

How the results depend on the processing

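Of 49 values recomputed under other settings, 39 stayed within set limits. The limit was 1.5 times the count reported. For the median fold it was the counting interval of the 1 peak with that fold (2.71 to 5.25). That interval is wide, so it says little that all 7 recomputed median folds, among the 39, stayed inside it. All 17 peaks already had a −log10 q of at least 5, so that setting could not move any value of the 7 genes. Those values are among the 39 as well. Among peaks whose expected input lay at the genome background, 9 of the 17 peaks were left, 4 at Cip/Kip and 5 at Ink4 genes. By these, 3 of the 7 genes and 22 of the 52 genes in all 5 lists had a peak, against 17.4% of all protein-coding genes. Of the 6 inhibitor genes with a known start, 0 had one within 1 kb of it, against 11.7% of protein-coding genes with a known start. Every peak beside a member start had a raised input level and so left the count by construction. With a fold of at least 4, 8 peaks were left, 3 at Cip/Kip and 5 at Ink4 genes, and 25 of the 52 listed genes had one, against 16% of all protein-coding genes. With a window of 5 kb or 20 kb, a −log10 q of at least 5, summits in place of any overlap, or assignment to the nearest gene, 5 of the 7 genes had a peak. The share of all protein-coding genes was not recomputed at these settings, so this count cannot be set against it. The median fold ranged from 3.82 to 4.68, the latter among peaks with a fold of at least 4, which raises it by construction. No paired analysis was possible because there was 1 library of each kind and no test. At this depth the counting intervals of 13 of the 17 folds include the median of all peaks. The share over the whole list is not given here, so this count cannot be set against it.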

Other observations

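Few short genes carried as many Arid1b peaks as Cdkn1b. Of the 5121 protein-coding genes no longer than Cdkn1b, 44 had 6 or more peaks by the rule used for the inhibitors, Cdkn1b among them. The others, picked out here after their values were seen, include Junb and Hoxa9 with 12 peaks each, Dlx2, Dlx6 and Hoxa11 with 11, Msx1, Dusp1, Zfp36 and Foxf1 with 9, and Actb and Actg1 with 7. Genes with 6, as Cdkn1b has, include Id3, Ccn1, Dusp6, Atf4 and Hand2. Hox and Dlx genes lie in clusters, and neighbours within 10 kb count the same peaks.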
